A study of Mus musculus with 8 samples.

Results

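The imprinted Dlk1-Dio3 region of mouse chromosome 12 holds a large cluster of microRNAs (miRNAs), and 33 mature miRNAs of that cluster were followed here in mouse amniotic fluid, in the secreted membrane vesicles called exosomes. The 33 members were taken by name from the 1881 miRNAs on the array, and all 33 were present (names carry the mouse prefix mmu- in the sequence lines only). Of these, 6 lie in the proximal stretch from miR-431 to miR-136, 24 lie in the distal stretch from miR-379 to miR-410, and miR-337-3p, miR-370-3p and miR-3072-5p lie outside both.

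The series holds 8 single-colour Agilent arrays, 1 per sample. In the first group, 4 samples come from mice that delivered preterm after lipopolysaccharide (LPS, a bacterial outer membrane component that sets off inflammation), given intraperitoneally at 100 μg/kg on gestational day 14, about 48 h before delivery. The control group is 4 samples taken at cesarean section, from mice for which the labels record no injection either way. Every sample carries the label day 17 of pregnancy. Delivery about 48 h after an injection on day 14 would fall before day 17, so equal gestational age of the groups is not settled. LPS and the mode of delivery differ together between the groups and cannot be told apart. Below, "with LPS" means in the LPS group. The labels name no strain, genotype or fetal sex, and they do not say whether replicates are separate animals, so a p-value here measures only the spread between these samples. A lower or higher signal cannot be split into a different number of releasing cells and a different amount of a miRNA per cell.

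At this locus the protein-coding genes Dlk1, Rtl1 and Dio3 are expressed from the chromosome inherited from the father, while the miRNAs and the long noncoding RNAs Meg3, Rian and Mirg are expressed from the maternal one. The proximal miRNAs are made from a transcript antisense to Rtl1, a gene needed in the placenta, and can direct cleavage of the Rtl1 messenger RNA. Many miRNAs of the locus are abundant in the embryo, the placenta and the brain and scarce in most adult tissues.

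By the probe positions in the files (mm9), the proximal stretch covers chr12:110828676-110833597 (4.9 kb) and the distal stretch chr12:110947281-110981994 (34.7 kb), with 113.7 kb between them. The files place 27 members. The other 6 (miR-337-3p, miR-434-3p, miR-380-3p, miR-323-3p, miR-409-3p and miR-369-3p) were placed by the order of their hairpins in RefSeq (GRCm38.p6). In that annotation all 6 proximal members and miR-337-3p lie within the bounds of Rtl1, miR-370-3p lies within the noncoding gene Rian, and miR-154-5p, miR-377-3p, miR-541-5p, miR-409-3p, miR-369-3p, miR-410-3p and miR-3072-5p lie within the noncoding gene Mirg. The remaining members lie in no gene listed there.

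The mature sequences of the 6 proximal members, the shorter of the stretches compared, are given 5′ to 3′ from RefSeq (GRCm38.p6), with the seed, bases 2 to 8, in capitals.
mmu-miR-431-5p: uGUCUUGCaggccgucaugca
mmu-miR-433-3p: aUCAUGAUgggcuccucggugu
mmu-miR-127-3p: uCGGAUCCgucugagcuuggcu
mmu-miR-434-3p: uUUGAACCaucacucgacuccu
mmu-miR-136-5p: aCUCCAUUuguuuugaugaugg
mmu-miR-136-3p: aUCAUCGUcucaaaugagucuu
No seed was shared among them.

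The distal members shown next are those whose values are described below, followed by the partners that differ from them by a single seed base.
mmu-miR-379-5p: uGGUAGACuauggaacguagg
mmu-miR-411-5p: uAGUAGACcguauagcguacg
mmu-miR-543-3p: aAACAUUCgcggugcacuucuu
mmu-miR-495-3p: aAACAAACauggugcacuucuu
mmu-miR-376b-3p: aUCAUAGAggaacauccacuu
mmu-miR-376a-3p: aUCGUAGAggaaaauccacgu
mmu-miR-134-5p: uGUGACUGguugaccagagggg
mmu-miR-154-5p: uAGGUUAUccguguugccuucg
mmu-miR-410-3p: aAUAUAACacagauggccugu
mmu-miR-494-3p: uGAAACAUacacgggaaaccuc
mmu-miR-300-3p: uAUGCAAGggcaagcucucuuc
mmu-miR-381-3p: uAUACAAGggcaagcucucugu
The table held a mature sequence for 30 of the 33 members, and their 30 seeds were all distinct. The pairs miR-379-5p and miR-411-5p, miR-376a-3p and miR-376b-3p, and miR-300-3p and miR-381-3p each differed at 1 of 7 seed bases. Outside the members, 6 shared their seed with another miRNA: miR-379-5p with miR-1193-5p and miR-299a-3p with miR-299b-3p, both named in the locus list, miR-411-5p with miR-7229-5p, miR-329-3p with miR-362-3p, miR-495-3p with miR-1192, and miR-410-3p with miR-344d-3p and miR-344e-3p. No member's probe had a target lying whole within the mature sequence of another named miRNA, and binding of the mismatched pairs to each other's probes was not tested.

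All signals are background-subtracted spot intensities, scaled to each array's 75th percentile and put on the log2 scale, where a floor of 3.75 marks the lowest signal well above background. The 75th percentile before scaling ranged from 7.74 to 8.81 on the cesarean arrays and from 7.72 to 8.67 on the LPS arrays (log2 intensity), and between 403 and 551 of the 1881 miRNAs were well above background on an array. All arrays lay on 1 slide with LPS in the first row and cesarean in the second, so slide row and group cannot be told apart. Members were detected more often than array miRNAs at large: between 23 and 31 of the 33 were well above background on an array, against at most 29.3% of all miRNAs. The lowest count was on cesarean replicate 3 and the highest on LPS replicate 3. This describes the listed members, chosen with earlier results of these data known, and not the whole locus. Of 79 other miRNAs of the locus, 11 were detected widely enough to be tested.

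Testing took in 29 members, all 6 proximal, 20 distal and the 3 outside, each detected (well above background) on 3 or more arrays in 1 of the groups. Of these, 21 were detected on all 8 arrays (3 proximal, 15 distal and the 3 outside). The proximal members miR-433-3p, miR-136-3p and miR-136-5p entered the test through the LPS arrays alone and had to lean that way, so counts over the tested members are a description and not evidence of a direction. The 4 members left out, all distal, were miR-411-5p, miR-299a-3p, miR-485-5p and miR-369-3p.

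Between the groups, more tested members had a higher than a lower mean signal with LPS, and no single member passed the test. With limma and Benjamini-Hochberg adjustment over the 470 miRNAs tested at a threshold of 0.05, 0 of 29 members passed, against 4.89% of all miRNAs tested (2.55% higher and 2.34% lower with LPS). The smallest adjusted p-values, from limma, were 0.0516 for miR-136-5p and 0.0567 for miR-434-3p, both proximal. At an unadjusted p under 0.05, 10 members were higher (34.5%, against a background of 13.8%) and 1, miR-134-5p, was lower (background 11.3%). The 4 LPS values lay wholly above the 4 cesarean values for 6 members (20.7%, background 9.79%) and wholly below for miR-134-5p (background 7.23%). An exact two-sided permutation test gives an unadjusted p of 0.0286 for any member without overlap, the smallest that 8 arrays allow. It therefore adds nothing to this count. Of these 7, 5 were detected on all arrays, and the other 2, miR-136-5p and miR-136-3p, entered through the LPS arrays alone. Among the 21 members detected on all arrays, 9 were higher at an unadjusted p under 0.05, against 12.8% of the miRNAs tested that way.

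The median log2 difference over the 29 members was 0.31 (LPS minus cesarean), against -0.057 over all 470 miRNAs, and 20 of 29 differences were above 0 (69.0%, against 45.5%). The split depended on scaling. Without scaling between arrays, and also when scaled to spike-in probes, 16 of 29 were above 0 (55.2%, against 36.4% and 37.9% of all miRNAs). No member then reached an unadjusted p under 0.05, while 4.26% and 5.11% of all miRNAs were higher at that level. The members' median was 0.16 and 0.18, and the median of all miRNAs stood at -0.20 and -0.18. The median of the members lay above that of all miRNAs by 0.36 with and without scaling, and by 0.090 with a floor 2 times as high. Leaving out LPS replicate 3 lowered the members' median to 0.077 and leaving out cesarean replicate 3 lowered it to 0.18. The count of members higher at an unadjusted p under 0.05 was 5 of 29 without either of those arrays. The share of all miRNAs was 11.7% without LPS replicate 3 and 9.79% without cesarean replicate 3. Without LPS replicate 2 the count was 6 of 29, against 10.6%. The count past the adjusted threshold was 4 without LPS replicate 1 (miR-127-3p, miR-434-3p, miR-136-5p and miR-379-5p), where 79 of all 470 miRNAs passed, and 1 without LPS replicate 4 (miR-136-5p), where 25 of 470 passed.

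**Figure D1:**
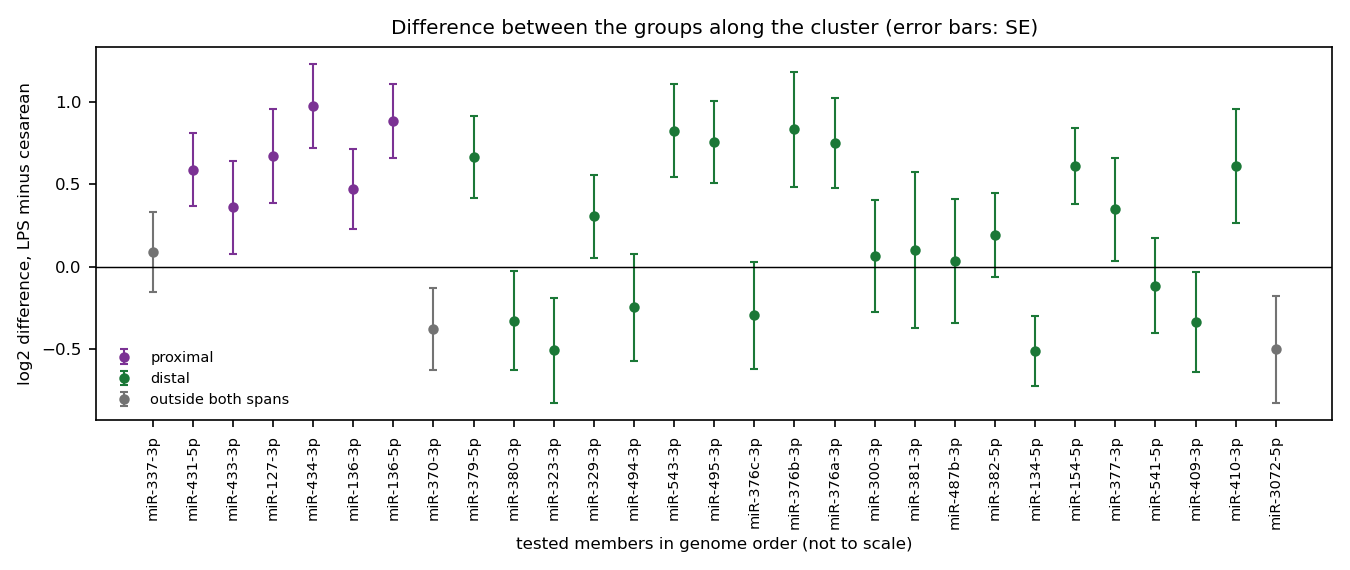
Log2 difference (LPS minus cesarean, points) with its standard error (bars) from limma for the 29 tested members, placed in genome order on the x axis and coloured by stretch. The 6 proximal members all lie between 0.36 and 0.98, while the 20 distal members run from -0.51 to 0.84.

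The proximal stretch had a difference above 0 for all 6 members, with a median of 0.63 and a range from 0.36 to 0.98. For 3 of the 6, which were at the floor on 3 of the 4 cesarean arrays, that sign rests on values at or near the floor, and with a floor 2 times as high 5 of 6 were above 0 and the median was 0.33. All 6 were above 0 without scaling and with spike-in scaling, including the 3 that entered the test through the LPS arrays alone and had to lean that way.

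miR-434-3p showed the largest difference of any member. Its log2 signal was 7.26, 7.25, 7.48 and 7.99 on cesarean replicates 1 to 4 and 8.62, 8.09, 8.75 and 8.42 on LPS replicates 1 to 4. The LPS arrays were all above the cesarean arrays, by a narrow margin between LPS replicate 2 and cesarean replicate 4. The means were 7.49 ± 0.35 and 8.47 ± 0.28 (SD, n = 4), a difference of 0.98 ± 0.26 (SE; limma adjusted p = 0.0567) or 1.97-fold.

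miR-136-5p and its partner arm miR-136-3p, cut from 1 hairpin, were close to the detection limit in the cesarean group. miR-136-5p was at the floor of 3.75 on cesarean replicates 1 to 3, at 3.93 on cesarean replicate 4, and at 4.70, 4.97, 4.80 and 4.27 on LPS replicates 1 to 4. It was well above background on 2 cesarean arrays and on all 4 LPS arrays, with no overlap between the groups. The difference was 0.88 ± 0.22 (limma adjusted p = 0.0516), and a floor 2 times as high left 0.065 of it. miR-136-3p was at the floor on cesarean replicates 1 to 3 and at 3.78 on cesarean replicate 4, against 4.58, 3.95, 4.55 and 3.84 on the LPS arrays. Its groups did not overlap either, with a difference of 0.47 ± 0.24 (limma adjusted p = 0.247) that came to 0 with the higher floor.

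miR-127-3p, which matches the Rtl1 transcript it is antisense to, was detected on every array. Its log2 signal was 7.22, 7.15, 6.99 and 7.77 on the cesarean arrays and 7.31, 8.21, 8.21 and 8.10 on the LPS arrays. LPS replicate 1 lay among the cesarean values and the other 3 LPS arrays lay above them all. The difference was 0.67 ± 0.28 (limma adjusted p = 0.171), and 0.89 without LPS replicate 1 (limma adjusted p = 0.0405; alternatives gave 0.0405 to 0.612).

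miR-431-5p, the first miRNA of the proximal stretch, was also detected on every array. It measured 6.06, 6.24, 6.04 and 6.63 on the cesarean arrays and 6.68, 6.93, 6.90 and 6.82 on the LPS arrays. The groups were separate, with cesarean replicate 4 just under the lowest LPS value. The difference was 0.59 ± 0.22 (limma adjusted p = 0.135).

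miR-433-3p was near the detection limit in both groups. It stood at the floor on cesarean replicates 1 to 3 and on LPS replicate 1, at 4.20 on cesarean replicate 4, and at 4.14, 4.93 and 4.08 on LPS replicates 2 to 4. The groups overlapped, with LPS replicate 3 above the rest (0.36 ± 0.28, limma adjusted p = 0.459). Leaving out LPS replicate 3 took this difference to 0.12.

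**Figure D2:**
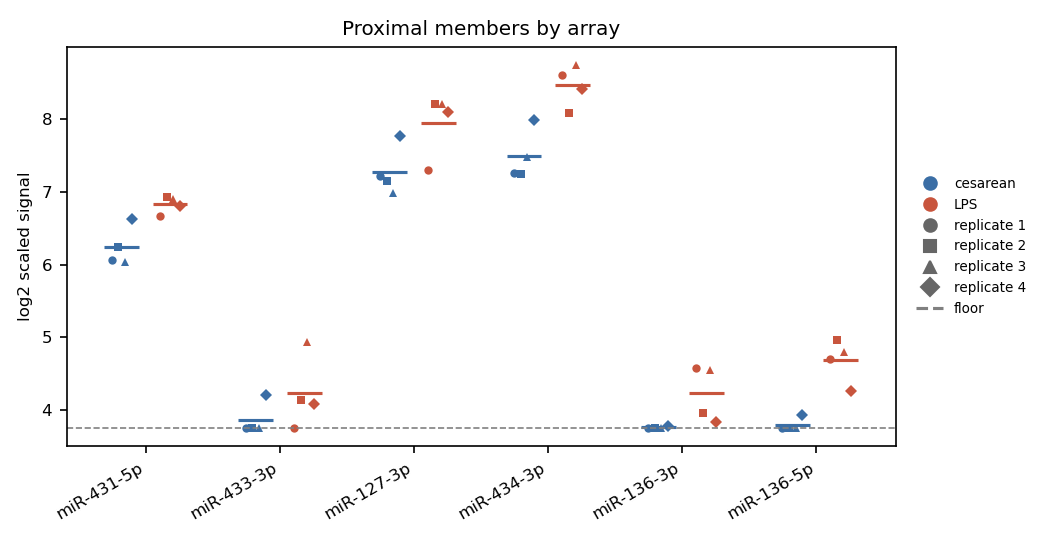
Log2 scaled signal of the 6 proximal members on each array, with cesarean and LPS arrays in different colours, replicates by marker shape, group means as horizontal lines and the detection floor of 3.75 dashed. The LPS values of miR-431-5p, miR-434-3p, miR-136-3p and miR-136-5p all lie above their cesarean values, as for 9.79% of all miRNAs tested. Both miR-136 arms were at the floor on 3 cesarean arrays. They entered the test through the LPS arrays alone and had to lean that way.

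The distal stretch was mixed. Of its 20 tested members, 13 had a difference above 0 and 7 below, with a median of 0.15 and a range from -0.51 to 0.84, and 6 were higher and 1 lower at an unadjusted p under 0.05 (over all miRNAs tested, 13.8% and 11.3%). Without scaling 10 of the 20 were above 0 and the median was 0.013, and with spike-in scaling the count was the same and the median 0.042. Neighbouring members could differ in sign: miR-376a-3p and miR-376b-3p were at 0.75 ± 0.27 and 0.84 ± 0.35, and miR-376c-3p, from the hairpin beside them, was at -0.30 ± 0.33. The difference between these 3 was not tested.

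Among the distal members with higher signal in the LPS group, miR-495-3p had the smallest adjusted p. It measured 6.86, 6.81, 6.35 and 6.95 on the cesarean arrays and 7.46, 7.28, 7.98 and 7.30 on the LPS arrays, so the groups did not overlap. The difference was 0.76 ± 0.25 (limma adjusted p = 0.0906).

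miR-543-3p, encoded just before miR-495, showed the same order of arrays at the extremes. Its values were 5.14, 5.14, 4.60 and 5.32 (cesarean) and 5.85, 5.47, 6.501 and 5.68 (LPS), with no overlap. The difference was 0.83 ± 0.28 (limma adjusted p = 0.104). For both, cesarean replicate 3 was the lowest array and LPS replicate 3 the highest.

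miR-376a-3p and miR-376b-3p belong to a family whose precursors are known to be edited from adenosine to inosine in some tissues. miR-376a-3p was at 6.30, 6.31, 5.69 and 6.76 on the cesarean arrays and at 6.76, 7.01, 7.39 and 6.92 on the LPS arrays (limma adjusted p = 0.128). miR-376b-3p was at 7.20, 7.12, 6.19 and 7.38 (cesarean) and 7.53, 8.08, 8.43 and 7.19 (LPS; adjusted p = 0.171 with limma). For miR-376a-3p only cesarean replicate 4 reached into the LPS values, and by less than 0.01. For miR-376b-3p the overlap came from LPS replicate 4.

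miR-379-5p is the first miRNA of the distal stretch and miR-410-3p the last. miR-379-5p measured 5.34, 5.08, 5.29 and 5.51 (cesarean) and 5.49, 6.41, 5.95 and 6.04 (LPS), a difference of 0.67 ± 0.25 (limma adjusted p = 0.135). miR-410-3p measured 6.85, 7.24, 6.03 and 7.26 (cesarean) and 7.37, 7.34, 8.15 and 6.98 (LPS), a difference of 0.61 ± 0.35 (limma adjusted p = 0.295). In both the groups overlapped through a single LPS array, replicate 1 for miR-379-5p and replicate 4 for miR-410-3p. Unlike most distal members, miR-379-5p was highest on LPS replicate 2.

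miR-154-5p, within Mirg, was at 6.08, 6.19, 5.997 and 6.61 on the cesarean arrays and at 6.89, 6.60, 7.06 and 6.77 on the LPS arrays. LPS replicate 2 and cesarean replicate 4 met at the border, and the other arrays were apart. The difference was 0.61 ± 0.23 (limma adjusted p = 0.135).

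miR-134-5p, known for limiting dendritic spine size in neurons, ran the other way. It measured 6.01, 6.19, 5.95 and 6.13 on the cesarean arrays and 5.31, 5.77, 5.41 and 5.72 on the LPS arrays. All LPS values were below all cesarean values. The difference was -0.51 ± 0.21 (limma adjusted p = 0.167). Its 4 probes, with 10 to 13 bases facing the miRNA, included the shortest of any member.

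**Figure D3:**
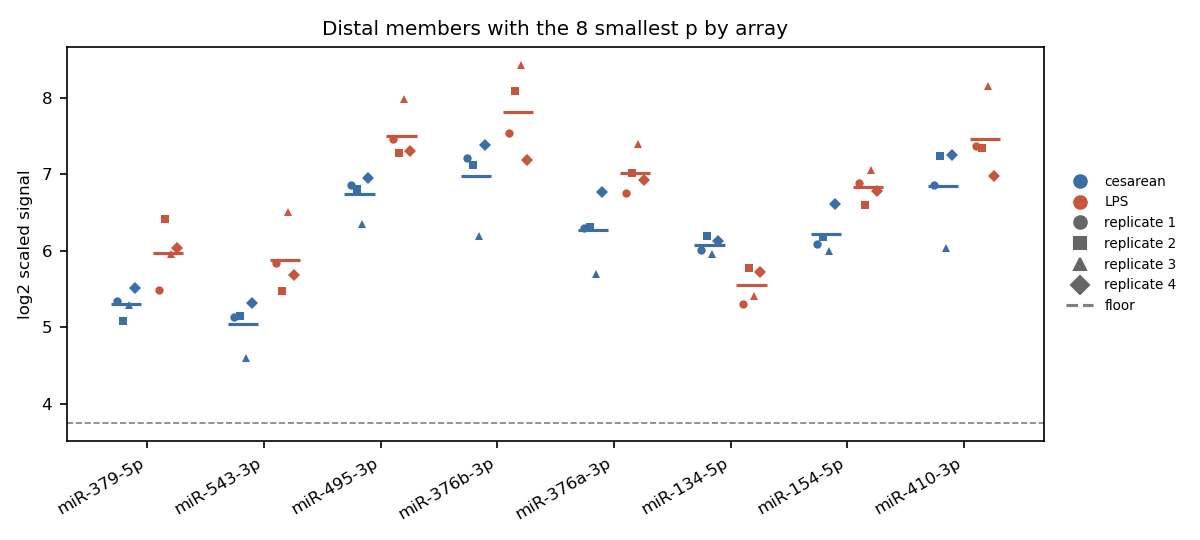
Log2 scaled signal of the 8 distal members with the smallest p-values on each array, with cesarean and LPS arrays in different colours, replicates by marker shape, group means as horizontal lines and the detection floor of 3.75 dashed. LPS replicate 3 is the highest LPS array for miR-543-3p, miR-495-3p, miR-376b-3p, miR-376a-3p, miR-154-5p and miR-410-3p, and miR-134-5p alone has its LPS mean below its cesarean mean.

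The distal members with the highest mean signals were miR-494-3p, miR-300-3p and miR-376b-3p, although levels of different probes were not compared. miR-494-3p measured 12.05, 11.77, 12.49 and 12.11 on the cesarean arrays and 12.35, 11.71, 11.04 and 12.34 on the LPS arrays, a difference of -0.25 ± 0.33 (limma adjusted p = 0.690). Here LPS replicate 3 was the lowest array of all and cesarean replicate 3 the highest, the reverse of most distal members. miR-300-3p measured 7.48, 7.74, 6.94 and 7.87 (cesarean) and 7.56, 7.35, 8.42 and 6.97 (LPS), a difference of 0.066 ± 0.34 (limma adjusted p = 0.928), with LPS replicate 3 above all other arrays and the remaining LPS values within the cesarean range. Leaving out LPS replicate 3 turned the sign of both, to 0.026 and -0.22.

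The other 10 tested distal members split evenly, with 5 differences above 0 and 5 below. They ranged from -0.51 (miR-323-3p) to 0.35 (miR-377-3p), and the smallest adjusted p among them was 0.344 (limma). Of these 10, 9 had their highest LPS value on LPS replicate 3. The widest swing was that of miR-381-3p, which reached 6.05 on LPS replicate 3, against 4.29, 3.95 and 3.75 on LPS replicates 1, 2 and 4. Its seed partner miR-300-3p was highest on the same array.

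Of the members not tested, miR-485-5p and miR-369-3p were not well above background on any array, and miR-299a-3p was so on 1 LPS array without exceeding the floor. miR-411-5p, which lies next to miR-379, was detected on no cesarean array and on 2 LPS arrays, LPS replicate 2 (5.05) and LPS replicate 3 (4.40). Against a bound on the cesarean level, taken per array as the lowest signal well above background and not less than the floor (mean 3.798), the LPS mean of 4.24 was 1.36-fold higher, with no test. That mean takes in LPS replicate 1 at the floor and LPS replicate 4 at 3.76, neither well above background. The value of 1.36 is therefore not a lower limit.

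The 3 members outside both stretches did not share the proximal pattern, and none had a limma adjusted p below 0.354. miR-337-3p, the nearest to the proximal stretch and also within Rtl1, measured 6.16, 6.38, 6.16 and 6.56 (cesarean) and 6.499, 6.22, 6.85 and 6.06 (LPS). Its groups overlapped throughout, at 0.090 ± 0.24 (-0.056 without scaling and -0.057 without LPS replicate 3). miR-370-3p, within Rian, measured 7.18, 7.70, 7.72 and 7.72 (cesarean) and 7.02, 7.35, 6.85 and 7.59 (LPS), a difference of -0.38 ± 0.25. Its LPS values were lower except that cesarean replicate 1 sat among them. miR-3072-5p, past miR-410, measured 8.47, 8.29, 8.47 and 8.12 (cesarean) and 7.01, 8.41, 7.59 and 8.33 (LPS), a difference of -0.50 ± 0.32. LPS replicates 1 and 3 were low and the other 2 were within the cesarean range, and the difference was -0.23 without LPS replicate 1.

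To set the proximal against the distal stretch on each array, every tested member was centred on its own mean over the cesarean arrays, since signals of different probes cannot be compared directly. The proximal median was -0.088, -0.078, -0.078 and 0.36 on cesarean replicates 1 to 4 and 0.63, 0.65, 0.96 and 0.52 on LPS replicates 1 to 4. All LPS arrays were above all cesarean arrays, with cesarean replicate 4 apart from its group. This order is a description: 3 of the 6 members in the median entered through the LPS arrays alone and had to lean that way. These 3 were at the floor on cesarean replicates 1 to 3. The distal median was 0.029, 0.11, -0.42 and 0.24 on the cesarean arrays and 0.11, 0.022, 0.81 and -0.032 on the LPS arrays. Only LPS replicate 3 stood above the cesarean range, and cesarean replicate 3 stood below the rest of its group. Of the 20 distal members, 16 had their highest LPS value on LPS replicate 3 and 17 their lowest cesarean value on cesarean replicate 3.

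The proximal median exceeded the distal median on each LPS array, by 0.52, 0.62, 0.15 and 0.55, and the medians of the differences between groups were 0.49 apart (0.63 against 0.15). On the cesarean arrays the gap ran from -0.19 to 0.34. The gap of 0.49 was 0.30 without LPS replicate 2 and 0.28 without LPS replicate 4. It was 0.19 with normexp background correction and 0.16 with a floor 2 times as high. Among members detected on all arrays, 3 proximal and 15 distal, it was 0.37. The distal median was 0.027 without LPS replicate 3 and 0.054 without cesarean replicate 3, and was 0.33, 0.28 and 0.26 without LPS replicate 4, LPS replicate 2 and cesarean replicate 4, while the proximal median stayed between 0.55 and 0.78 with any single array left out. Members of a stretch share a transcript and are not replicates, and 3 proximal members entered through the LPS arrays alone, so this gap has no test.

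**Figure D4:**
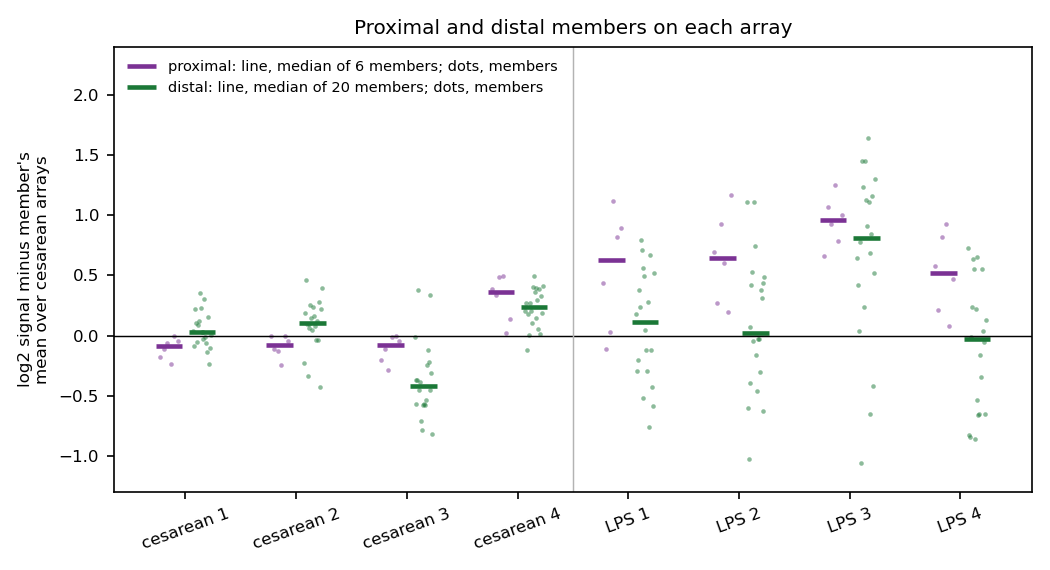
Log2 signal minus each member's own cesarean mean, for the 6 proximal and 20 distal tested members (dots) and their medians (lines) on each of the 8 arrays. The proximal medians lie between 0.52 and 0.96 on the LPS arrays, and the distal median leaves the cesarean range only on LPS replicate 3, at 0.81. Of the 6 proximal members, 3 entered the test through the LPS arrays alone.

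Where both arms of a hairpin were tested, the arms of miR-136, miR-337, miR-382 and miR-434 had differences of the same sign. Both miR-136 arms entered the test through the LPS arrays alone and had to lean that way. The miR-337 arms were near 0, at 0.044 ± 0.23 (5p) and 0.090 ± 0.24 (3p). For miR-434 they were 0.51 ± 0.28 (5p) and 0.98 ± 0.26 (3p), and for miR-382 they were 0.19 ± 0.25 (5p) and 0.35 ± 0.26 (3p). The arms of miR-409 had opposite signs, at 0.44 ± 0.23 for the 5p arm and -0.34 ± 0.31 for the 3p arm. The 5p arm was at the floor on 3 of the 4 cesarean arrays and entered the test through the LPS arrays alone. Separate probes for 1 miRNA mostly gave the same sign: of 17 members with 2 or more probes detected on all arrays, 16 did so, and the exception was miR-300-3p, whose probes differed by 0.30. Such probes face nearly the same bases, so they are not independent. That count leaves out miR-136-5p, miR-136-3p and miR-433-3p. The second probe was detected on 0 arrays for miR-136-5p and miR-433-3p, and on 2 for miR-136-3p (difference 0.050). With the mean over probes, miR-136-5p was at 0.44 (limma adjusted p = 0.104).

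The array also carried 79 other miRNAs of the locus, opposite arms of members and products of other hairpins. Of these, 11 were tested and 0 passed (limma, adjusted, against 4.89% of all miRNAs tested). Among the 11, miR-770-3p and miR-409-5p entered through the LPS arrays alone. miR-3070-2-3p and miR-1188-5p entered through the cesarean arrays alone. As a description only, 8 differences were above 0 (72.7%, against 45.5%) and 3 below, with a median of 0.35 (against -0.057). At an unadjusted p under 0.05, 1 was higher and 1 was lower, 9.09% each way and below the shares over all miRNAs tested (13.8% and 11.3%). The higher one, miR-299b-5p, measured 4.08, 4.12, 4.43 and 4.39 on the cesarean arrays and 4.52, 5.68, 5.09 and 4.999 on the LPS arrays, with no overlap, a difference of 0.82 ± 0.27 (limma adjusted p = 0.0950). The targets of both its probes lie whole within miR-299a-5p, which has no probe of its own name. The signal could therefore come from either miRNA or both, as their sequences show.
mmu-miR-299a-5p: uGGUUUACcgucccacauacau
mmu-miR-299b-5p: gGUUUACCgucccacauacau
The lower one, miR-341-3p, measured 5.15, 5.37, 5.99 and 5.38 on the cesarean arrays and 4.77, 4.57, 5.16 and 4.96 on the LPS arrays. Only LPS replicate 3 and cesarean replicate 1 met, and the difference was -0.61 ± 0.25 (limma adjusted p = 0.171).

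Amniotic fluid exosomes have no defining miRNA, so the label was set against miRNA markers of the cell types the fluid could draw on. Markers of striated muscle and liver stood highest on LPS replicate 3, the array with the highest distal values. Centred like the members, the 4 striated muscle markers averaged 1.40, -1.40, 2.202 and -1.14 on LPS replicates 1 to 4, with log2 summed levels of 8.12 to 9.15 in the cesarean group and 7.12 to 10.9 in the LPS group. The liver marker miR-122-5p was at 3.40, 0.17, 4.93 and 0.69, with log2 levels of 3.75 to 7.02 and 5.04 to 9.81 in the groups, and at the floor on cesarean replicates 1 and 3. LPS replicate 1, also high for both, had a distal median of 0.11 only. None of these 5 miRNAs passed between the groups, and their part in the distal values was not tested. The 2 tested leukocyte markers also averaged highest on LPS replicate 3, at 0.88. The erythroid, epithelial, neural, mesenchymal and endothelial markers averaged highest on other arrays.

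Some markers of other cell types passed between the groups in the same fit. Of 5 epithelial markers 3 rose (summed level 9.51 to 9.94 in the cesarean group and 10.5 to 11.1 in the LPS group), of 3 erythroid markers 1 rose (13.1 to 13.9 and 13.8 to 14.9), and of 5 neural markers, 3 of them tested (not miR-9-5p or miR-124-3p), 2 fell (7.38 to 10.5 and 6.15 to 7.23). Among the neural markers were miR-9-3p at -3.34 ± 0.74 (limma adjusted p = 0.0325) and miR-218-5p at -1.24 ± 0.30 (limma adjusted p = 0.0467). Of 4 leukocyte markers, 2 of them tested, 1 rose (8.88 to 9.51 and 9.07 to 9.65), and none of the 5 mesenchymal markers (10.6 to 11.7 and 9.81 to 10.6) or the 1 tested endothelial marker of 2 (7.96 to 9.08 and 8.06 to 8.59) passed. The mesenchymal markers differed in sign. Differences were -0.98 for miR-199a-3p, -1.03 for miR-199a-5p and -1.34 for miR-214-3p, against 0.62 for miR-143-3p and 0.71 for miR-145a-5p. The part of these sources in the proximal values was not tested.

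**Figure D5:**
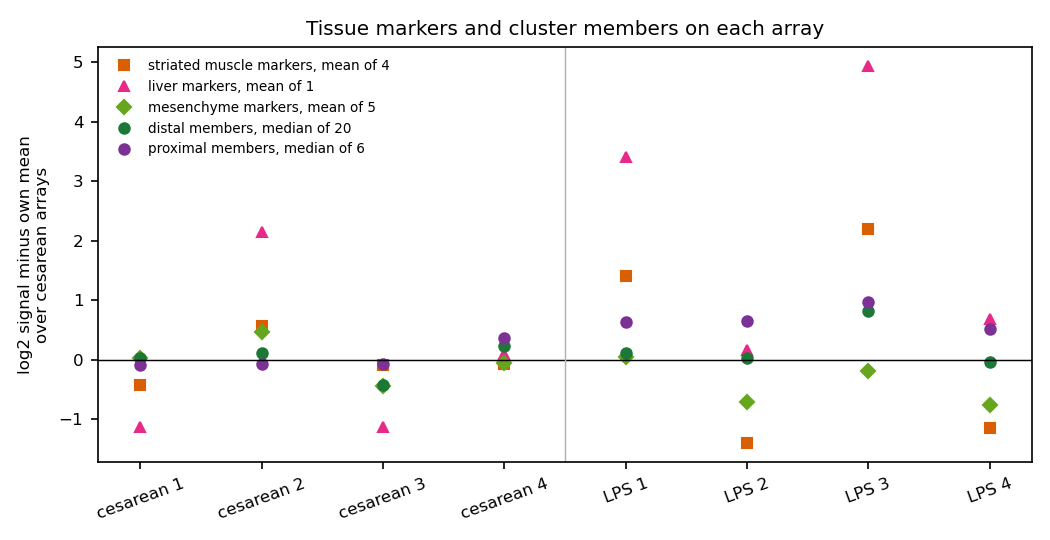
Log2 signal minus its own cesarean mean on each array, for the mean of the striated muscle, liver and mesenchyme markers and the medians of the proximal and distal members. Muscle and liver markers are highest on LPS replicate 3 (2.202 and 4.93), where the distal median is also highest (0.81). Leukocyte markers, not plotted, also average highest on that array. The mesenchyme mean joins markers whose differences between the groups have opposite signs.

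Across the 27 tested members with a mature sequence, members with more G and C had lower differences (Spearman rho = -0.43, Pearson r = -0.49). The differences were not ordered by mean signal (Spearman rho = 0.039). Both are descriptions across members, which share arrays, scaling and transcripts, and carry no test. No value over all miRNAs tested is set beside them, so neither is shown to be particular to the cluster.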

How the data were processed

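Exosomes were isolated from amniotic fluid by size-exclusion chromatography, per the labels' protocols, and Cy3-labelled material was made from 0.5 μg RNA with a kit the labels describe as for cRNA. The intensity values were read with Agilent Feature Extraction 10.7.1.1 per the file headers (version 9.1 per the submitters' processing notes), as background-subtracted spot signals with no normalization across arrays. The deposited log2 value table had been normalized between arrays by the authors (column medians 2.14 to 2.15), by a method not given in the sources used here, and served as an alternative.

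Control spots and spots with outlier marks (3.00% to 3.48% of miRNA spots) were left out, and no miRNA spot was saturated. A probe was well above background if at least 0.5 of its spots were. Each array was scaled to the 75th percentile of those 618 probes that every array detected, and its signals were raised to a floor of 13.5 and taken to log2; the brightest probe stood for each miRNA. The 470 miRNAs well above background on at least 3 of 4 arrays of either group were tested with limma 3.58.1 in R 4.3.3 (lmFit, eBayes, two-sided, Benjamini-Hochberg, threshold 0.05). The procedure was also run on simulated data with independent values for each miRNA. That simulation had no floor, no detection filter and no shift shared by an array, so it does not cover those conditions. With 4 arrays a group, the number of arrays limits the precision.

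Members without a position in the files were placed by RefSeq hairpin order. Values were given array by array for all tested proximal members, the distal members with the 8 smallest p and the 3 highest mean signals, tested members outside both stretches, members given as a bound, and other miRNAs of the locus with an unadjusted p under 0.05. miR-381-3p, miR-323-3p, miR-376c-3p and miR-377-3p were singled out after their values were seen. The members and lists, cell type markers included, were chosen with earlier results of these data known. As alternatives, each array was left out in turn, the slide column was used as a block, and the filter, floor, scaling, probe summary, background correction, test and value source were varied. Plots used matplotlib 3.10.9 under Python 3.11.15.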

Additional observations from a re-analysis of the deposited data

Results flagged for a closer look

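In 8 of 62 groups of 4 arrays, 1 array lay far from the other 3 of its group. Chance would flag about 1 in 20 groups of untied values, and 3 of the 8 are proximal members whose other cesarean arrays were tied at the floor, where any value above it is marked: on cesarean replicate 4, miR-433-3p was at 4.20, miR-136-5p at 3.93 and miR-136-3p at 3.78, all others being 3.75. The centred proximal median, which includes those 3 members, was 0.36 on cesarean replicate 4, against -0.088 to -0.078 on the other cesarean arrays. miR-127-3p was at 7.31 on LPS replicate 1, below the 8.10 to 8.21 of the other LPS arrays. miR-370-3p was at 7.18 on cesarean replicate 1 (others 7.70 to 7.72), and miR-329-3p at 6.07 on cesarean replicate 3 (others 6.53 to 6.62). miR-409-3p was at 6.97 on LPS replicate 3, above the 5.80 to 5.86 of the other LPS arrays.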

How the results depend on the processing

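No paired analysis was possible because the labels pair no samples. With the slide column as a block, 2 of 29 members were higher and 0 lower at an unadjusted p under 0.05. Of all 470 miRNAs, 46 were higher under this setting (9.79%), and 1 miRNA in all passed the adjusted threshold. Members past the adjusted threshold numbered 2 of the 36 passing miRNAs with quantile normalization (miR-136-5p and miR-379-5p) and 1 of 30 with the value table. They numbered 1 of 28 with the mean over probes (miR-434-3p), 1 of 23 with eBayes trend and robust (miR-136-5p), and 0 to 4 with 1 array left out. Members higher at an unadjusted p under 0.05 numbered 0 without scaling or with spike-in scaling, where 4.26% and 5.11% of all miRNAs were higher. They numbered 4 with the scanner's total per miRNA (8.09% of all miRNAs), and 5 to 10 with 1 array left out (9.79% to 19.6%). The 1 lower member became 0 under those 3 settings, with the 75th percentile over all probes, with normexp and with eBayes trend and robust, and was 0 to 1 with 1 array left out. All miRNAs past the threshold numbered 1 without scaling and with spike-in scaling, 13 with the 75th percentile over all probes, 36 with quantile normalization, 9 with normexp, 6 with the scanner's total, 15 over miRNAs detected on all arrays, 2 without a filter, and 3 to 79 with 1 array left out (79 without LPS replicate 1), against 23.

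The proximal median was 0.37 with normexp, 0.86 with the scanner's total and 0.33 with a floor 2 times as high, and 0.55 to 0.78 with 1 array left out. The members' and distal medians were 0.56 and 0.41 with the scanner's total. The proximal minus distal gap was 0.19 with normexp, 0.16 with the higher floor and 0.28 to 0.59 with 1 array left out. The members' median was 0.077 to 0.41 and the distal median 0.027 to 0.33 with 1 array left out. Signs turned for miR-300-3p (-0.080 without scaling, -0.081 with the value table, -0.083 with the mean over probes, -0.034 with spike-in scaling, -0.0091 with the scanner's total, -0.12 without cesarean replicate 3, and -0.22 to 0.27 with 1 array left out), for miR-337-3p (-0.056 without scaling, -0.010 with spike-in scaling, and -0.057 to 0.21 with 1 array left out) and for miR-494-3p (-0.41 to 0.026 with 1 array left out). The lowest of the first 2 ranges and the highest of the third are without LPS replicate 3. The cause was not tested. Single members did not turn sign or cross the threshold in 375 of their values under the alternatives, passed in 10 and turned sign in 11. The 375 include miR-136-3p with the higher floor, where the difference was 0. Members near the floor are limited by signal over background.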
